A study of Mus musculus with 4 samples.

Results

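The genes described here are 35 interferon-stimulated genes of the mouse, read in 4 ATAC-seq libraries of sorted MPP3 cells. ATAC-seq cuts and tags DNA where chromatin is open, so a peak marks an accessible stretch of the genome. MPP3 are bone marrow multipotent progenitors that are biased toward granulocytes and monocytes. The cells came from bone marrow of WT-iMOS mice at 3 months of age and were split into groups that the labels call T1 and T2, with 2 libraries each, to ask about the intrinsic role of Bcl11a, a zinc-finger transcriptional repressor. The genotype labels are WTiMOS_T1 and WTiMOS_T2, so all 4 libraries carry the WT-iMOS name. The meaning of the names T1 and T2, the number of mice, the MPP3 gate and whether replicates are separate animals are absent from the labels, so the spread between replicates may be technical.

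Type I interferons bind a receptor of Ifnar1 and Ifnar2, which acts through the kinases Jak1 and Tyk2 on transcription factors that include Irf9. Irf9 binds, with its partners, the interferon-stimulated response element, the ISRE, in the promoters of target genes. The targets include sensors of foreign nucleic acid, enzymes that block viral RNA and protein, and membrane proteins that hinder entry or release of virus. In blood progenitors, interferon-stimulated genes are known both for a constitutive level of expression and for a strong response to infection.

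The members were taken by name at mm10 coordinates. Of the 35, 33 are protein-coding in the reference and 2, Mx1 and Mx2, are listed there as transcribed pseudogenes. Peaks of the 4 lists that shared at least 1 bp were joined into regions, and those in a gene body or up to 20 kb either side were assigned to the gene. This gave 162 of the 77914 joined regions of the genome, of which 21 lay near more than 1 member. A further count took the 43 regions within 1 kb of either end of a member, out of 15570 regions at the ends of 21887 protein-coding genes.

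A region was called shared where all 4 libraries had a peak, T2-only where both T2 libraries and no T1 library had one, and T1-only in the opposite case. The strength of a peak is the caller's -log10 q value, called q score below. Because the lists held 58469 and 54057 peaks in T1 and 66776 and 62718 in T2, a raw score or a rank in a list of its own length does not show a change. Each score was therefore placed as a percentile among the 44274 shared regions, the same set in every library. A region ranked above in T2 where both T2 percentiles exceeded both T1 percentiles. No p-value is given, since 2 against 2 libraries cannot go below an exact two-sided permutation p of 0.333.

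The DNA letters behind the ISRE were read from RefSeq promoters, 250 bases before to 50 bases after each annotated start, in build GRCm38.p6. The letters searched were GAAA, any 2 bases, GAAA, on both strands. A promoter entry was matched for 26 of the 35 members. Mx1, Mx2, Oas2, Usp18, Dhx58, Rtp4, Parp14, Parp9 and Zbp1 had none. The ISRE letters were in 13 of these 26 promoters (50%), against 1079 of 27025 genes of the table (3.99%). The 20 matches lay between -156 and 32 bp of the start site, with a median of -69 bp. A match is a description of sequence and not a binding site.

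These 30-base sites are shown because they span members with open and with unlisted starts. They are written 5′ to 3′ on the strand of the gene, with the matched letters in capitals (TTTC is GAAA read from the other strand). They were chosen after the peak values were seen.
Isg15, minus strand, chr4:156200871-156200900: gtagGAAAAGGAAACCGAAACAGAAAatag
Ifit3, plus strand, chr19:34583363-34583392: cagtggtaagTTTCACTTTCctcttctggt
Ifit3, plus strand, chr19:34583397-34583426: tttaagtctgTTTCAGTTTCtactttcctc
Oas3, minus strand, chr5:120777715-120777744: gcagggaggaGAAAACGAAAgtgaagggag
Gbp3, plus strand, chr3:142559992-142560021: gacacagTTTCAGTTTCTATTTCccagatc
Ifit1, plus strand, chr19:34640784-34640813: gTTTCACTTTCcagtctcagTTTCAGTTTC
Eif2ak2, minus strand, chr17:78882535-78882564: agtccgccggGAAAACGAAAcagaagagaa
Ifih1, minus strand, chr2:62646206-62646235: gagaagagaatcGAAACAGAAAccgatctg
Bst2, minus strand, chr8:71537580-71537609: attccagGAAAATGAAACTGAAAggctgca
Ifitm3, minus strand, chr7:141010715-141010744: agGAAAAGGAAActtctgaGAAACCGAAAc

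Of the 20 matches, 12 lay inside a region shared by all 4 libraries, 1 inside a region of a single library and 7 in no region. For the 12, the distance from a peak's summit to the match ran from 12 to 438 bp over the libraries, with a median of 56 bp. Only matches near a start and inside a peak region were measured, and no other distances were computed for comparison. No closeness of match and summit is therefore read from this. The 7 outside any region were the 3 matches of Isg15, the 2 of Ifit3 and the 2 of Gbp3, whose peak region begins 9 bp past them. A start region in all 4 libraries was found for 10 of the 13 members with the ISRE letters and for 13 of the 13 without them. The STAT letters, TTC, any 3 bases, GAA, were in 7 of 26 member promoters (26.9%) against 9.55% of the table's genes. Bst2, Eif2ak2 and Ifitm3 held both.

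Most of these genes were open at an end in every library, in T1 and T2 alike. A shared region at a gene end was found for 31 of the 35 members (88.6%), against 60.2% of protein-coding genes. The exceptions were Isg15, Ifit3, Oas3 and Rtp4. Differences between the groups were mostly of rank within the shared regions and not of presence, and they ran in both directions. By the strongest gene-end region of each member, the clearest were Ifitm1, Xaf1 and Samhd1, which ranked higher in T2, and Oas2, which ranked higher in T1. Dhx58 is set apart here, since its 2 gene-end regions ran opposite ways. Differences of this size were not rare. Of the 44274 shared regions, 6.53% lay at least as far toward T2 as Ifitm1, 6.6% as Xaf1 and 7.39% as Samhd1. Toward T1, 2.48% lay at least as far as Oas2. For Dhx58 the share was 7.22% at its strongest end region, toward T1, and 3.26% at its other one, toward T2.

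Of the 162 regions near the members, 109 were shared (67.3%), 7 were T2-only (4.32%) and 3 were T1-only (1.85%). Over all regions of the genome 6.88% were T2-only and 2.33% T1-only, so the members' shares were close to or below the background in both directions. The other 43 followed no group, and 30 of them were in a single library. Leaving out 1 library loosens the rule: T2-only regions then numbered 16 without T2 replicate 1 (genome 11.4%) and 19 without T2 replicate 2 (14.9%). T1-only regions numbered 10 when T1 replicate 2 was left out (genome 6%), and 5 when T1 replicate 1 (4.29%) or T2 replicate 1 (4.31%) was.

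At the gene ends, 35 of the 43 regions were shared (81.4%), 1 was T2-only and none was T1-only. The background at the ends of protein-coding genes was 3.03% T2-only and 0.514% T1-only, and 82.7% of those regions were shared. The share of T2-only regions at the members' ends, 2.33%, was near the background. With 1 library left out, the T2-only regions at these ends numbered 4 without T2 replicate 1 (background 4.8%) and 3 when T1 replicate 1 was left out (5.9%), and 1 T1-only region appeared when T1 replicate 2 was (1.75%).

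**Figure D1:**
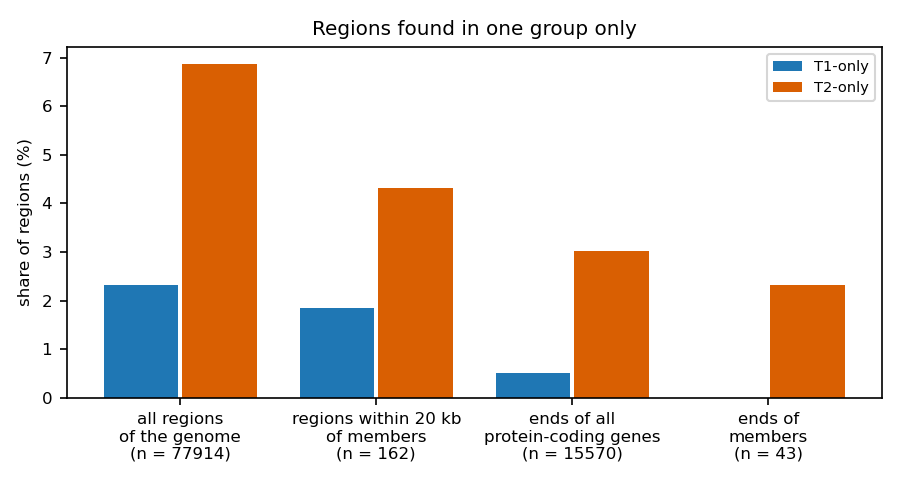
Bars give the share of regions (vertical axis, percent) that were T1-only or T2-only, over the genome, within 20 kb of the members, at the ends of protein-coding genes and at the ends of the members, with the number of regions under each pair. T2-only regions made up 6.88% of the genome's regions, 4.32% near the members, 3.03% at protein-coding gene ends and 2.33% at the members' ends.

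The order of the shared regions was counted too, without a test. Among the 35 shared regions at members' ends, 11 ranked above in T2 (31.4%), 5 in T1 (14.3%), and 19 overlapped. At the ends of all protein-coding genes these shares were 22.6% and 29.7%, of 12874 shared regions. The median difference, T2 minus T1, was 1.02 percentile points for the members' best gene-end regions and -0.445 points for all shared gene-end regions. These order counts at gene ends were made after the values were seen. With 1 library left out the rule loosens: 20 of 35 ranked above in T2 without T1 replicate 1 (background 35.3%) and 18 of 35 without T2 replicate 2 (35.8%). The count was nearer the background without T1 replicate 2, at 14 of 37 (32.3%), and without T2 replicate 1, at 13 of 35 (32.9%). In the same way, 13 of 37 ranked above in T1 without T1 replicate 2 (43.2%) and 10 of 35 without T2 replicate 1 (44.2%). There were 8 of 35 without T2 replicate 2 (39.4%) and 7 of 35 without T1 replicate 1 (40.9%).

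Counted only at annotated starts, 9 of 24 shared regions ranked above in T2 (37.5%) and none in T1, against 21.9% and 29.9% at the annotated starts of protein-coding genes. Of the 5 members with a gene-end region ranked above in T1, Oas2, Dhx58, Zbp1 and Mx2 have no promoter entry and are outside that count. Over all 109 shared regions within 20 kb, 29 ranked above in T2 (26.6%) and 26 in T1 (23.9%), against 26.3% and 26.2% of all shared regions. The wider neighbourhood of these genes thus had a balance near the genome's. Whether it differs from that at the gene ends was not tested. Without T1 replicate 1, 47 of 110 ranked above in T2 (genome 38.4%), and without T2 replicate 2, 45 of 111 (38.1%). The count was 38 of 112 without T1 replicate 2 (38%) and 36 of 110 without T2 replicate 1 (38.6%). Without T1 replicate 2, 50 of 112 ranked above in T1 (37.9%), and without T2 replicate 1, 40 of 110 (37.9%). With T1 replicate 1 left out, 36 of 110 ranked above in T1 (38.1%).

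**Figure D2:**
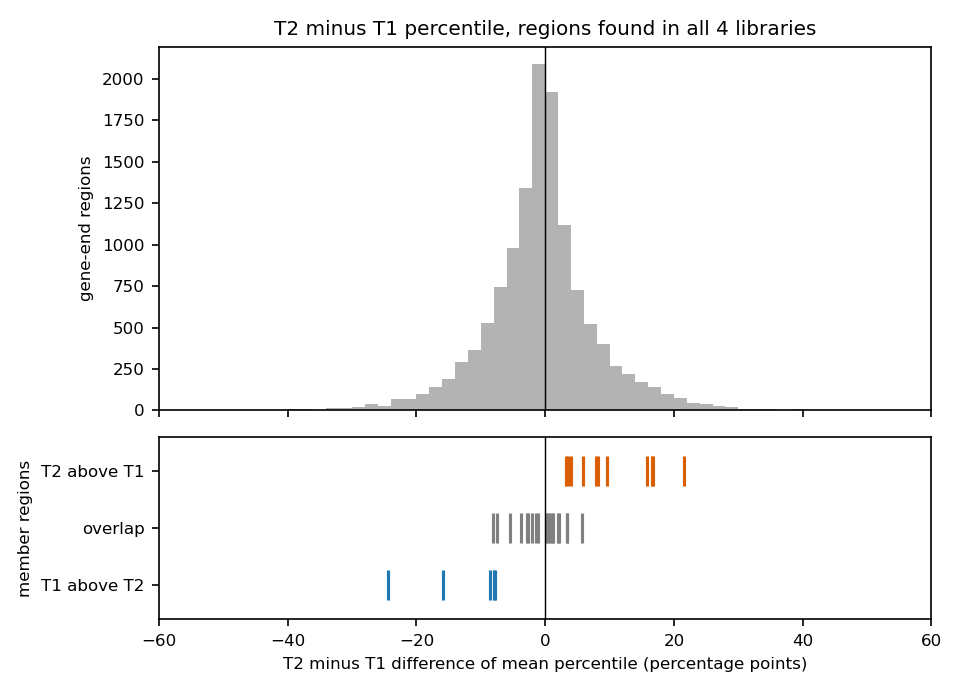
The upper panel counts all shared regions at protein-coding gene ends by the T2 minus T1 difference of mean percentile (horizontal axis, percentage points), and the lower panel marks the 35 shared regions at the members' ends, split by the order of the libraries. The members' regions with T2 above T1 lie to the right of 0 and number 11, and those with T1 above T2 lie to the left and number 5.

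Markers of other cells were read the same way. The megakaryocyte list (Pf4, Itga2b, Gp9, Gp1ba, Vwf) had a shared gene-end region for 4 of 5 genes, and 3 of its 5 shared gene-end regions ranked above in T2 and none in T1, against 22.6% and 29.7% at protein-coding gene ends. Of the 39 regions near this list 7 were T2-only (17.9%, genome 6.88%). The erythroid list had 2 of 4 above in T2 and none in T1. The endothelial list had 2 of 4 above in T2 and 1 in T1, the stromal list none and 2 of 3, and the B cell list none of 2 either way. The plasmacytoid dendritic list, which holds the member Bst2, had none above in T2 and 2 of 3 above in T1, and the macrophage list none and 1 of 3. Cd3g, Ncr1 and Cd8a of the T and NK cell list had no gene-end region in any library, while Cd3e had a shared one, at percentiles 9.41 and 16.8 in T1 and 2.72 and 10.1 in T2, and Lck one in T2 replicate 2 alone. Of the progenitor list, 7 of 10 genes had a shared gene-end region, Kit, Flt3, Cd34, Cebpa and Spi1 among them, while Ly6a and Elane had none and Mpo had a T2-only one. Of its 8 shared gene-end regions 4 ranked above in T2 (50%) and 2 in T1 (25%). The part of other cells in the members' order was not tested, and more open cells cannot be told apart from more opening per cell.

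**Figure D3:**
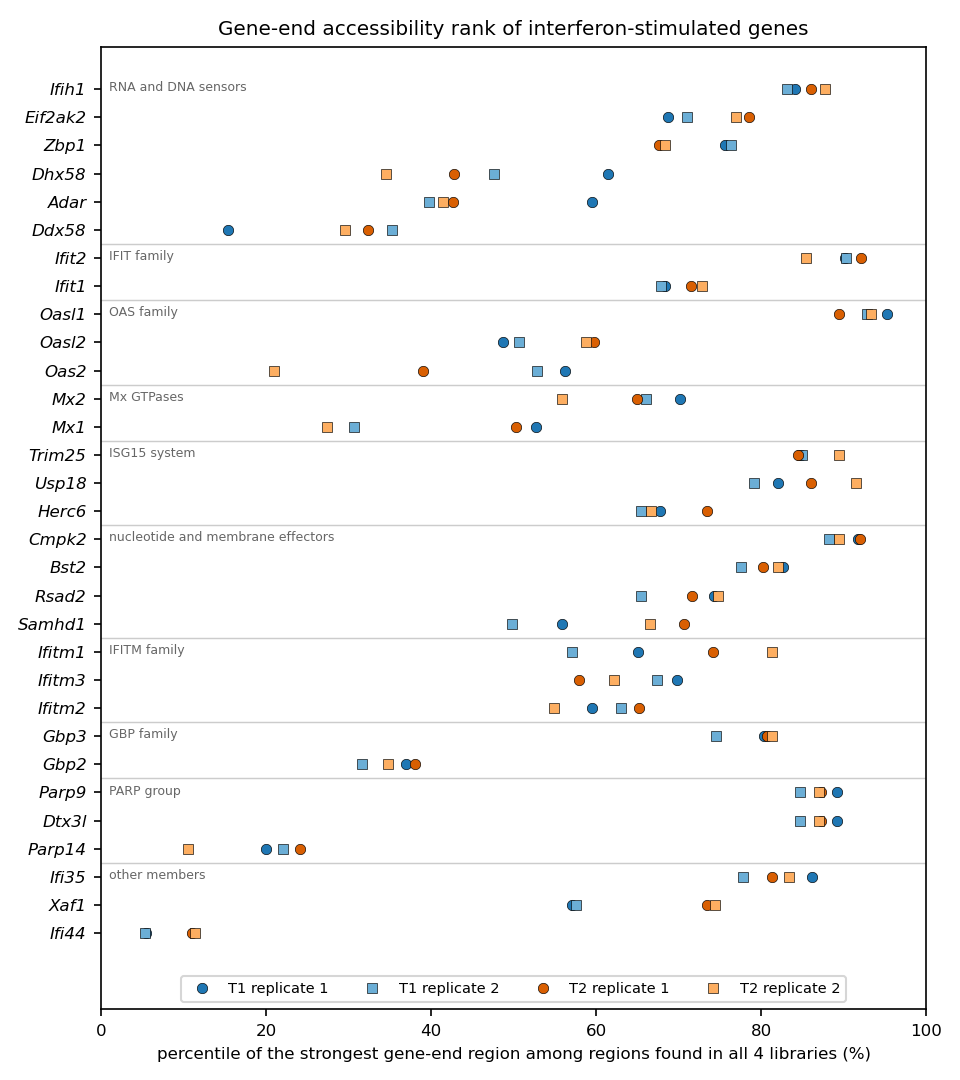
Each row is a member with a shared gene-end region, grouped by role, and the horizontal axis gives the percentile of its strongest gene-end region among the 44274 shared regions in each of the 4 libraries. Xaf1, Samhd1 and Ifitm1 show both T2 points to the right of both T1 points, and Oas2 shows the opposite.

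Among the sensors of foreign RNA and DNA, Ifih1 (MDA5, a sensor of long double-stranded RNA) and Eif2ak2 (PKR, a kinase that halts translation on double-stranded RNA) ranked slightly higher in T2. The Eif2ak2 start region, chr17:78881622-78882996, stood at percentiles 68.7 and 71 in T1 and 78.5 and 77 in T2, a difference of 7.93 points. The Ifih1 start region stood at 84.1 and 83.2 in T1 and 86 and 87.8 in T2, a difference of 3.26 points. Neither pair of groups overlapped. Ddx58 (RIG-I, a sensor of short RNA with a 5′ triphosphate) spread widely between replicates, at 15.4 and 35.2 in T1 and 32.4 and 29.5 in T2, and Adar, an enzyme that edits adenosine in double-stranded RNA, overlapped too.

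Dhx58 (LGP2, a regulator of both RNA sensors) had neighbouring regions that ran opposite ways. The strongest, chr11:100702478-100703466 inside the gene near one end, stood at percentiles 61.4 and 47.6 in T1 and 42.8 and 34.5 in T2. A region 419 bp away, chr11:100703886-100704589, which also lies at an end of the histone acetyltransferase gene Kat2a, stood at 33.4 and 28.2 in T1 and 48.2 and 56.4 in T2. The difference was -15.9 points at the first and 21.5 points at the second, so no single direction describes this gene. Without T1 replicate 1 the second region was the stronger and the gene's value became 23.4 points, and as a percentile within whole lists it was -7.23 points.

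Zbp1, a sensor of Z-form nucleic acid that can start necroptosis, ranked higher in T1. Its end region, chr2:173218498-173219360, stood at 75.6 and 76.3 in T1 and 67.6 and 68.4 in T2, a difference of -7.97 points. As a percentile within each whole list the difference was -3 points, and with the fold value ranked it was -16.8 points. Ifih1 also had a weak T2-only region inside the gene, chr2:62618947-62619269, with q scores of 11.6 and 4.11.

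Isg15 is a ubiquitin-like protein that is joined to other proteins, Herc6 is the mouse ligase that joins it, Usp18 removes it, and Trim25 is a ubiquitin ligase that activates Ddx58. Isg15 had no gene-end region in any library, although its promoter holds 3 overlapping ISRE matches. The nearest region lay 1838 bp from its start. On the other side, a region at an end of its neighbour Agrn, chr4:156196746-156198185, stood at percentiles 50.6 and 55.3 in T1 and 72.1 and 79.4 in T2, a difference of 22.8 points.

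Usp18 was strong in all libraries and ranked higher in T2. Its end region, chr6:121245227-121246189, had q scores of 91 and 63.3 in T1 and 114 and 120 in T2, and percentiles of 82.1, 79.2, 86.1 and 91.5 in the same order. The difference was 8.18 points, 4.11 points when the caller's fold value was ranked instead, and 5.3 points without T2 replicate 2. The Usp18 gene, chr6:121245906-121270917, also held a weak T1-only region, chr6:121261104-121261682, with q scores of 4.81 and 5.18.

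Herc6 had the strongest T2-only region of the list. It lay inside the gene (chr6:57580992-57665136), 60.9 kb from its start, at chr6:57641690-57642156. Its q scores were 56.9 and 46.1 in T2, at percentiles 76.1 and 73.8 of the T2 lists, and neither T1 library had a peak there. Of the 5364 T2-only regions of the genome, it was the 3rd by the lower of its T2 percentiles, a rank read after the values were seen. It was T2-only in 5 of 5 other settings of peak strength, list length and joining. The Herc6 start region itself overlapped between groups, at 67.8 and 65.4 in T1 and 73.5 and 66.7 in T2. Exon or intron was not assigned, since no exon annotation was used here.

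Trim25 had a strong start region in all 4 libraries, at percentiles from 84.5 to 89.5, with overlapping groups. Beyond its far end, chr11:89027906-89028316 stood at 50.3 and 57.1 in T1 and 22.4 and 20.1 in T2, a difference of -32.4 points. Over the ISG15 system, 2 of 13 shared regions within 20 kb ranked above in T2 and 4 in T1, where 26.3% and 26.2% of all shared regions did. No direction is read from this or the later counts by family, which rest on few regions.

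The Ifit proteins bind viral RNA at its 5′ end. Ifit2 was among the strongest members, with q scores of 131 and 102 in T1 and 148 and 92.9 in T2 at its start, and its groups overlapped. Ifit1 ranked 4.08 points higher in T2 at its start, at 68.3 and 67.9 against 71.5 and 72.8. Further along, chr19:34656399-34656935 stood at 21.7 and 23.8 in T1 and 48 and 58.7 in T2, a difference of 30.6 points, the furthest toward T2 of the shared regions near the members. That region overlaps the annotated span of Ifit1bl1.

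Ifit3 had no gene-end region in any library, and the nearest region lay 12977 bp from its start. Its one T2-only region, chr19:34607432-34607742, had q scores of 11.6 and 6.95 and overlapped Ifit3b, a near-identical copy of Ifit3, and Ifit1bl1. Reads that fit both copies may have been dropped or split by the authors' alignment, so both the missing peak and the extra one are uncertain. Across the Ifit genes 3 of 7 shared regions ranked above in T2 and none in T1 (all shared regions 26.3% and 26.2%).

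The OAS enzymes make 2′-5′ linked oligoadenylate, which activates RNase L, and the Oasl proteins are their relatives. Oasl1 had the highest mean gene-end percentile of all members, 94.7 of each list. This value comes from a shared region upstream of the start, chr5:114921675-114922520, 0.623 kb outside Oasl1 and at an end of its neighbour Gm13822. The q scores there were 177 and 117 in T1 and 132 and 132 in T2, and the groups overlapped. A second region, 572 bp further, covered the start itself and was T2-only: chr5:114923093-114923527, with q scores of 18.8 and 10.4. It was the only T2-only region at a member's end and was T2-only in 5 of 5 of the same settings.

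The 250 bases before the Oasl1 start site (chr5:114922990-114923239, plus strand, RefSeq, GRCm38.p6) are shown because this start was listed in T2 alone. Capitals mark the 147 bases inside the T2-only region, and the ISRE letters are not in this window.
Oasl1: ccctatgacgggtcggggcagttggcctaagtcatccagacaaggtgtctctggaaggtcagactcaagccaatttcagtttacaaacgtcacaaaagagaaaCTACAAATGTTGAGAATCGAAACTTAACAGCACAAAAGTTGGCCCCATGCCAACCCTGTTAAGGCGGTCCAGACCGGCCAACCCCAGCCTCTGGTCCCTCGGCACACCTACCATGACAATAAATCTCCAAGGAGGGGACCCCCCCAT

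Oasl2, next to Oasl1, ranked higher in T2 at its start, with q scores of 32.1 and 26.7 in T1 and 50.8 and 41.3 in T2. Its percentiles were 48.7 and 50.6 against 59.7 and 58.8, a difference of 9.57 points, which was 1.28 points when the fold value was ranked. Between the genes, chr5:114916628-114917075 went the other way, at 22.2 and 49.1 in T1 and 4.93 and 6.72 in T2.

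Oas2 ranked furthest toward T1 of the members' gene ends. Its region chr5:120749399-120750045 had q scores of 39 and 28.2 in T1 and 30.6 and 15.8 in T2. The percentiles were 56.2 and 52.8 in T1 and 39 and 20.9 in T2, a difference of -24.5 points, with T2 replicate 2 the lowest. It ranged from -33.2 to -15 points over 10 other settings, with -15 points without T2 replicate 2. Oas3 had an end region in T2 replicate 2 alone, with a q score of 13.5, which covered its ISRE match. Inside Oas3, however, chr5:120775256-120775971 was among the strongest regions of the list in every library, at percentiles 97.1 and 96.8 in T1 and 92 and 92.9 in T2. A weak T2-only region near Oas3, chr5:120793037-120793334 in Oas1e, had q scores of 4.85 and 4.73. Across the OAS family 1 of 10 shared regions ranked above in T2 and 5 in T1 (all shared regions 26.3% and 26.2%).

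The Mx proteins are dynamin-like GTPases that trap viral nucleoprotein. Mx2 ranked higher in T1 at its end, chr16:97534779-97536389, with percentiles 70.2 and 66.1 against 65 and 55.9, a difference of -7.72 points. It was -2.15 points within whole lists, -4.31 with the fold value ranked, -12 without T2 replicate 1 and -3.08 without T2 replicate 2. Mx1 did not separate, at 52.7 and 30.6 in T1 and 50.3 and 27.4 in T2, where replicate 2 was the lower in both groups. A region 15.2 kb from Mx1, within the protease gene Bace2, chr16:97431121-97431848, stood at 5.43 and 39 in T1 and 47.8 and 49.9 in T2.

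Among effectors of nucleotide supply and membranes, Samhd1, which degrades the dNTPs that viruses need, ranked higher in T2. Its start region, chr2:157134512-157135510, had q scores of 38.7 and 26.1 in T1 and 68.5 and 50.4 in T2, and percentiles of 55.9 and 49.8 against 70.7 and 66.6. The difference was 15.8 points, from 11.6 to 19.8 over 10 other settings. Samhd1 also had a T2-only region inside the gene, chr2:157131145-157131435, with q scores of 4.65 and 2.62, and a T1-only region in its neighbour Tldc2, chr2:157092703-157093034, with 6.28 and 6.09. Each is near the bottom of its list. Cmpk2, a mitochondrial nucleotide kinase, had the second highest mean gene-end percentile in its own list, 92.8. Its q scores of 142, 92.9, 148 and 109 overlapped between groups. Rsad2 (viperin), which makes a chain-terminating nucleotide, and Bst2 (tetherin), which holds budding virus on the cell, overlapped as well. Across these 4 genes, 4 of 15 shared regions ranked above in T2 and none in T1 (all shared regions 26.3% and 26.2%).

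The Ifitm genes encode membrane proteins that block fusion of virus with the cell, and they lie together on chromosome 7. At Ifitm1, chr7:140967762-140968420 had q scores of 50.4 and 31.6 in T1 and 76.2 and 79.6 in T2. The percentiles were 65.1 and 57.1 against 74.2 and 81.3, and the difference of 16.7 points was the furthest toward T2 among the members' best gene-end regions. Over the 9 regions within 20 kb of Ifitm1 and Ifitm2, 6 were shared, 3 of these ranked above in T2 and 1 in T1, and 1 region, chr7:140974797-140975322, was T2-only with q scores of 9.04 and 3.72.

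On the Ifitm3 side, 7 of 8 regions were shared, 4 of these ranked above in T1 and none in T2, and 1 was T1-only. Of all shared regions 26.3% ranked above in T2 and 26.2% in T1, and the difference between the sides of the cluster was not tested. The Ifitm3 start region was weak everywhere, between percentiles 0.801 and 8.58, although it holds 2 ISRE matches. Its stronger region lay at the far end, chr7:141008361-141009426, at 69.8 and 67.4 in T1 and 57.9 and 62.2 in T2, a difference of -8.54 points that was -2.6 points within whole lists. The T1-only region, chr7:141021986-141022536, had q scores of 19 and 14.5.

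The region furthest apart in the whole list lay at the start of Ifitm6, a gene of the same family that is no member and was singled out after its values were seen. At chr7:141016617-141017490 the q scores were 49.8 and 66 in T1 and 9.54 and 10.1 in T2. The percentiles were 64.7 and 80.3 in T1 and 5.15 and 9.21 in T2. This difference of -65.3 points was the 3rd furthest toward T1 of the 44274 shared regions, and it ranged from -72.7 to -58.2 over 8 other settings. The T1-only region lies 4495 bp beyond it. On the other flank of Ifitm3, chr7:140998871-140999757, in the long noncoding RNA gene Gm33504, stood at 80.2 and 84.6 in T1 and 49.4 and 59 in T2. Members of this family share sequence, so reads that fit several of them may be placed unevenly.

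**Figure D4:**
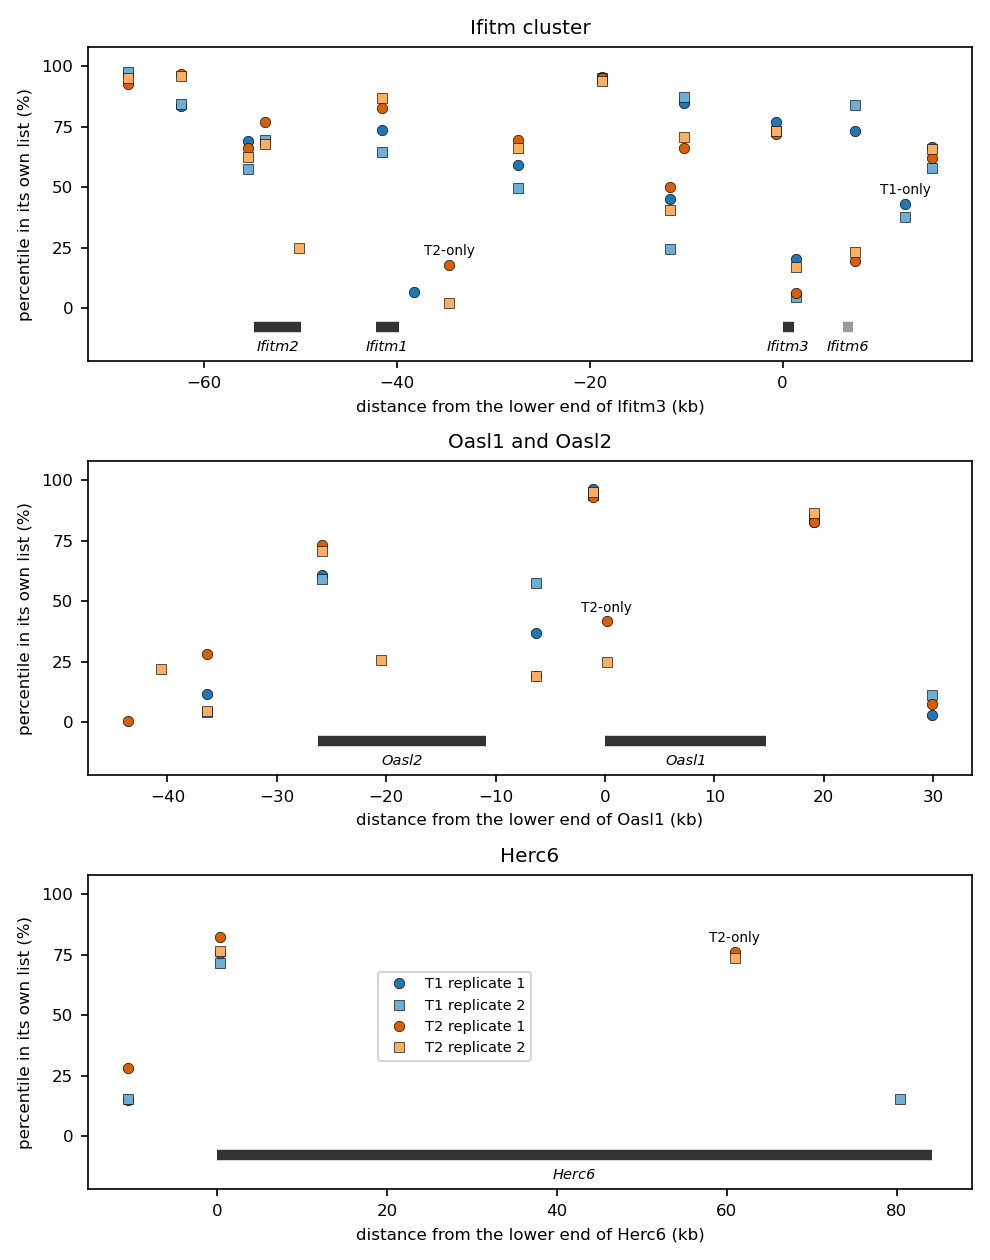
Each point is the percentile of a region in the list of its own library (vertical axis) at its distance in kb from the lower end of Ifitm3, Oasl1 or Herc6, with gene bodies as bars. The Ifitm6 start shows both T1 points above both T2 points, and the T2-only region of Herc6 stands at 76.1 and 73.8.

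The remaining members were mostly open without separation. Gbp3, a guanylate-binding GTPase, ranked 3.56 points higher in T2 at its start, at 80.4 and 74.5 against 80.7 and 81.3, where the nearest libraries of the groups stood at 80.4 and 80.7. Gbp2 overlapped. Parp9 and Dtx3l, which act as a pair in ADP-ribosylation and ubiquitination, share 1 start region, chr16:35938405-35940063, with a mean percentile of 90.4 in its lists and q scores of 125, 78.9, 120 and 98.4. Parp14 was low and overlapped, from percentile 10.5 to 24.1.

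Xaf1, a pro-apoptotic zinc-finger protein, ranked higher in T2 with close replicates. Its start region, chr11:72301220-72302199, had q scores of 40 and 32.1 in T1 and 74.7 and 63.4 in T2, and percentiles of 57.1 and 57.6 against 73.5 and 74.4. The difference was 16.6 points, from 15.4 to 20.8 over 10 other settings. Ifi44 had the lowest mean gene-end percentile among members with a shared one, at 5.43 and 5.36 in T1 and 11 and 11.4 in T2. Inside that gene, chr3:151742330-151742766 stood at 14.2 and 20.6 in T1 and 43 and 51.6 in T2, a difference of 29.9 points. Ifi35 overlapped. Rtp4, a chaperone of receptors in the membrane, had an end region in T1 replicate 1 alone, with a q score of 7.71. That region also lies at an end of Masp1. The reference gene model of Rtp4 spans 94004 bp, and a shared region inside it lay 4.32 kb from its other end. Its lack of a shared gene-end region thus depends on that model.

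By place, the members' regions inside the genes away from their ends were the least often shared. Shares inside genes or elsewhere were not computed over all genes, so no trait of the members is read from this. Over all regions of the genome 56.8% were shared, 6.88% were T2-only and 2.33% T1-only. Of 35 regions inside a member away from its ends, 40% were shared, 3 were T2-only and 1 was T1-only. Of 28 regions at the end of another protein-coding gene, 96.4% were shared, 1 was T2-only and none was T1-only. Of 56 regions elsewhere, 58.9% were shared, 2 were T2-only and 2 were T1-only. In all, 11 members had a T1-only or T2-only region within 20 kb and 24 had none. With a q score of at least 5 the T2-only calls of Ifih1, Oas3, Samhd1 and Ifitm1 and the T1-only call of Usp18 were lost, and with at least 10 those of Ifit3 and the T1-only call beside Samhd1 as well.

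Other genes of the pathway were read from a list of 52. A shared gene-end region was found for 46 of them, and of 51 shared gene-end regions 14 ranked above in T2 (27.5%) and 12 in T1 (23.5%), against 22.6% and 29.7% at protein-coding gene ends. Near them, 5.82% of 292 regions were T2-only and 2.4% T1-only, against 6.88% and 2.33% over the genome. Of the receptor genes, Ifnar1 stood at percentiles 94 and 97.5 in T1 and 98.9 and 98.5 in T2. The strongest end region of Ifnar2 overlapped between groups. Over the receptors and kinases, 2 of 7 shared gene-end regions ranked above in T2 and 1, at Ifnar2, in T1. Among the factors, 1 of 6 shared gene-end regions ranked above in T2 and 2 in T1. Stat2 ranked above in T2, at 91.6 and 90.8 in T1 and 95.2 and 94.9 in T2. Irf1 ranked above in T1, at 91.1 and 91.9 against 88.2 and 87.8, as did Irf3, at 93.8 and 93.3 against 88.2 and 88.5. Socs3, an inhibitor of cytokine signalling, stood at 76.5 and 78.1 in T1 and 93.5 and 94.6 in T2. It was the 1 of 4 shared gene-end regions of the negative regulators above in T2, and 2, at Socs1 and Ptpn6, ranked above in T1. Socs1 stood at 93.8 and 92 in T1 and 90.7 and 85.5 in T2.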

How the data were processed

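Bone marrow MPP3 cells were flow sorted, and libraries were made with the Vazyme Hyperactive ATAC-Seq kit, per the labels' protocols. Bowtie2, SAMtools and MACS2 and the build mm10 are named in the submitters' processing notes; versions, settings, read filters and the treatment of reads that fit several places were not given in the sources used here. The authors deposited 1 narrowPeak list per library. Each deposited row gives a peak's position, a score, a fold value (a ratio over background), -log10 p, -log10 q and the offset of the summit. These are the authors' own values per peak. They hold no read counts, so the depth behind them is unknown. No count test was computed, and no interval is given, since regions are not replicates.

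The peaks of the assembled autosomes and sex chromosomes were kept (58454, 54045, 66764 and 62704 for T1 replicates 1 and 2 and T2 replicates 1 and 2) and joined where they shared 1 bp. A region's value in a library was the highest -log10 q of its peaks, turned into a percentile within the list and among the shared regions. Gene positions and promoter letters came from RefSeq, GRCm38.p6. Python 3.11.15, pandas 2.3.3, numpy 2.4.6 and scipy 1.17.1 were used. The group-only calls and the ordering were tested on simulated lists. Those lists held peaks at the same positions in every library, so the joining of peaks with differing edges was not tested.

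The members and all gene lists were chosen with earlier results of these data known. Members were described by this rule: those with a T1-only or T2-only region within 20 kb, the 5 with the highest mean gene-end percentile in the lists, those with no gene-end peak, and per direction the 5 with the largest gene-end difference without overlap. The rule did not say which percentile the last step uses; the percentile among shared regions was taken after both had been seen, and with the percentile in the lists Ifi44 (15.3 points) would enter for T2. Other genes and regions named, and the printed ISRE sites, were chosen after their values were seen. Alternatives changed peak strength, list length, joining, distance, gene-end window, value ranked and libraries.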

Additional observations from a re-analysis of the deposited data

How the results depend on the processing

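The counts rest on 2 libraries a group and on peak calls without counts, so depth cannot be told apart from opening. T2-only regions within 20 kb were 4 with q scores of at least 10, 3 with lists cut to equal length, 4 in gene bodies alone and 21 within 50 kb; T1-only regions were 1 in gene bodies. At the gene ends, T2-only regions were 3 and 2 with q scores of at least 5 and 10, 2 with equal lists and 2 with windows around summits; T1-only regions were 1 with equal lists and 1 with summit windows. Shared regions at annotated starts with T1 above T2 were 0 of 24, where fewer genes were counted. The members' median difference within lists, 3.02, was 0.834 with equal lists and 1.02 among shared regions. Within lists, the median was 3.15 over all shared regions of the genome and 1.14 over those at protein-coding gene ends. A value of 3.02 is therefore not read as a shift of the members. Leaving out 1 library each, the ranges were 4 to 10 T1-only and 8 to 19 T2-only regions within 20 kb, 0 to 1 and 1 to 4 at gene ends, 36 to 47 with T2 above and 36 to 50 with T1 above within 20 kb, 13 to 20 and 7 to 13 at gene ends, and 1.16 to 6.13 for the median. Elsewhere the cause of a move was not tested. Leaving out Rtp4, added after the data were seen like the settings for order at gene ends and for Ifitm6, left 7 T2-only and 3 T1-only regions. Over values for single genes, Ifitm6 included, 161 stayed within the replicate spread or the same count, 78 moved and 1 turned: Dhx58, from -21.5 without T1 replicate 2 to 23.4 without T1 replicate 1, where its neighbouring region became the stronger. With a replicate block (differences within replicate number, a description with no test), the median stayed at 3.02, and at gene ends 15 of 35 regions had both differences toward T2 (background 29%) and 7 toward T1 (36.7%), counts added after the data were seen. The labels tie the numbers to no shared animal, batch or day, and over the 44274 shared regions the deviations of same-numbered libraries had a correlation of 0.0103.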

Other observations

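Interferon-stimulated genes outside the members, were read from a list of 30. A gene-end region in all 4 libraries was found for 25 of them, and of 29 shared gene-end regions 8 ranked above in T2 (27.6%) and 6 in T1 (20.7%), against 22.6% and 29.7% at protein-coding gene ends. Isg20, an RNA exonuclease, stood at percentiles 79.2 and 80.6 in T1 and 66.2 and 68.9 in T2. Slfn5, a Schlafen family gene, stood at 90.9 and 91.8 in T1 and 87.1 and 84 in T2. Lgals3bp, a secreted galectin-binding protein, stood at 81.8 and 76.4 in T1 and 83.7 and 87.8 in T2. Tap1 and Psmb9, which supply peptides for antigen presentation, share 1 strong region, at 97.1 and 94.7 in T1 and 97.7 and 96.3 in T2, with overlapping groups. Oas1g, Ifi209, Iigp1 and Slfn2 had no gene-end region in any library.

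Mpo, the granule peroxidase of the granulocyte lineage, had a T2-only region at its end, with q scores of 24.5 and 19.3. Epor, the erythropoietin receptor, stood at 62 and 61.1 in T1 and 76.8 and 77.5 in T2.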
